A study of Mus musculus with 34 samples.

Results

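The genes described here move amino acids across the cell membrane, make serine, asparagine, proline and one-carbon units inside the cell, or belong to the transcriptional response to amino acid shortage. The set is a list of 35 mouse genes chosen by name, with earlier results of these data known. Each gene was read from the probe set that carries its symbol alone and has the highest mean over all arrays. Such a probe set was found for 32 of the 35 genes, among 19938 genes with one on the array. Mat2a, Ahcy and Pycr1 had none and are not analysed here. All 32 passed the filter on dim genes, which required the highest of a gene's 10 group means to reach 5.33, the median of all values on the log2 scale.

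The cells were CD4+ splenocytes, taken with magnetic beads from female mice 8 weeks of age of 5 inbred strains: 129X1/SvJ, DBA/2J, C57BL/6J, Balb/c and A/J. CD4 marks mainly helper T cells, and no genotype or transgene separates the groups other than the strain itself. At T1 the cells had been stimulated for 4 h with phorbol 12-myristate 13-acetate (PMA) at 10 ng/ml and ionomycin at 1 uM. PMA activates protein kinase C and ionomycin raises cell calcium, so that this pair of drugs bypasses the T cell receptor. At T0 the cells were in the basal, untreated state. The labels leave it unclear whether T0 cells were also kept in culture for those hours, so culture and stimulus cannot be told apart. There were 17 arrays at T1 and 17 at T0, and at each time C57BL/6J and A/J had 4 of them and each of the other strains 3. The labels call the replicates biological and do not say whether 1 array is 1 mouse.

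A resting T cell imports few amino acids and grows little, whereas an activated T cell takes up large amounts of leucine, glutamine, serine and arginine to build protein and nucleotides. Serine feeds the folate cycle, in which serine hydroxymethyltransferases and the MTHFD enzymes pass single carbons on to purine and thymidylate synthesis. Many of these genes are also known targets of ATF4, a transcription factor whose translation rises when amino acids run short and which binds composite CEBP-ATF elements in their promoters.

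Promoter sequence is shown first for members in which the letters TGATGNAA, the core of such elements, were found. RefSeq windows of GRCm38.p6, from 250 bases before to 50 bases after a gene's start, were matched for 28 of the 32 members, and both strands were searched. The letters stood in 7 of the 28 members, namely Asns, Chac1, Got1, Slc1a4 and Trib3, which rose, and Slc7a11 and Slc7a7, which were not called. Over all 27025 genes with a window the share was 4.51%. Thus 5 of the 7 rose, a share near that of all members, of which 24 of 32 rose. Stretches with up to 40 bases before and after the letters are given 5′ to 3′ on the gene's own strand, with no transcribed base past the letters, and capitals mark the match on either strand. In Asns (chr6:7693210-7693272, minus strand) the match began 23 bases before the start, in Chac1 (chr2:119351009-119351096, plus strand) 193 bases before it, and in Got1 (chr19:43524660-43524747, minus strand) 102 bases before it. In Slc1a4 (chr11:20332710-20332757, minus strand) it began 4 bases before the start, and in Trib3 (chr2:152344039-152344086, minus strand) at base 15 of the transcript. Slc7a11 (chr3:50443614-50443719, minus strand) is set beside them as a member with a pair of matches, 66 and 47 bases before the start, that was not called. Slc7a7, not called either, had matches 141 and 1 bases before a start and 243 bases before another, and its sequence is not shown.
Asns: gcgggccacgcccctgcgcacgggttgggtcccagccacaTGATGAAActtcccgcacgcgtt
Chac1: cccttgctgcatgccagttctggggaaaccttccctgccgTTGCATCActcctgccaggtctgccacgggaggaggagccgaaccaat
Got1: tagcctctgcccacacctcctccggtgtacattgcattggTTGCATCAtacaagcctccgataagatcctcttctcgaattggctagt
Slc1a4: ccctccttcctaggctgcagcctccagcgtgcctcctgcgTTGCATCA
Trib3: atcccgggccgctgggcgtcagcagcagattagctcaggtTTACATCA
Slc7a11: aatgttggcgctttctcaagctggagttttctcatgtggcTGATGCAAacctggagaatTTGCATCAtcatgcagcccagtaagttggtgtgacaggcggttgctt
These matches are letters in a window and show no binding. The E-box letters CACGTG were found in Aldh18a1 and Slc43a1, and in 8.09% of all genes. The AP-1 letters TGACTCA were found in Slc7a1 and Ddit3, and in 5.95% of all genes. No member held matches of more than 1 of the 3 motifs, so matches of different motifs did not overlap.

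Values are log2 intensities, so a difference of 1 is a doubling of signal, and levels of different probe sets are not set against each other. Over the series, array medians lay between 5.28 and 5.39, and 11413 genes were tested. Of 12 T cell marker genes, 11 had a probe set and all 11 passed the filter, with a mean over the list of 8.52 to 9.36 on T1 arrays and 9.14 to 9.78 on T0 arrays. Of these 11, 6 were called lower and 3 higher at T1. Markers of other cells also passed the filter, which needs only 1 group mean at its limit, so genes high only at T0 can pass. Of the B cell markers 8 of 11 were called lower and 3 higher, with a mean over the list of 6.27 to 7.06 at T1 and 7.11 to 8.84 at T0. Called lower were also 9 of 12 markers of myeloid cells, 8 of 9 of neutrophils and 5 of 6 of CD8 T and NK cells, and 46.3% of all genes. In such bulk samples fewer cells of a type and less RNA per cell cannot be told apart, and the part of these markers in the results was not tested. The array labelled Balb/c T1 replicate 2 stood apart, with a mean correlation of 0.948 with the other arrays of its group against 0.965 for the next lowest array.

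Most of the set, which was chosen with earlier results of these data known, was higher after stimulation. Its counts beside those of all genes are therefore descriptions and carry no test. Of the 32 members, 24 rose, 3 fell and 5 were not called in the mean of the 5 strain differences (limma, adjusted p under 0.05). Of all genes tested, 82.3% were called, 36.0% higher and 46.3% lower at T1. The balance of all genes turns with the filter, since 43.8% of called genes were higher with it and 58.8% without it. The median change was 0.89 over the members and -0.07 over all genes, and 16 members rose by at least 1 on the log2 scale. In 14 members every T1 array lay above every T0 array, which was so for 9.28% of all genes, and in 2, Slc6a6 and Got2, every T1 array lay below, as in 17.5% of all genes. In 18 members a rise was called in each of the 5 strains, against 13.8% of all genes, and in 2 a fall, against 25.6%. One of the 18, Trib3, rests on a Balb/c call (adjusted p = 0.0467) that was lost in 16 of 34 fits without 1 array. These left out Balb/c T0 replicates 1, 2 or 4 or T1 replicates 1 or 4 (0.0719 to 0.323), A/J T0 replicates 2 or 5 or T1 replicates 2 or 4, C57BL/6J T1 replicates 1 or 2, DBA/2J T1 replicate 2 or T0 replicate 3, or 129X1/SvJ T1 replicate 1 or T0 replicates 2 or 4 (each at most 0.0513). By strain, 23 members were called higher and 3 lower in 129X1/SvJ (21.6% and 34.7% of all genes), 24 and 2 in DBA/2J (23.8% and 36.2%), 21 and 3 in C57BL/6J (25.1% and 38.6%), 21 and 2 in Balb/c (20.6% and 34.1%), and 21 and 2 in A/J (20.3% and 36.3%). Every one of the 27 calls of the mean held when any single array was left out, and without Balb/c T1 replicate 2 there were 29. Within the arrays numbered 1 and 2 and, separately, those numbered 3 to 5, 26 members were called in the same direction in both sets.

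**Figure D1:**
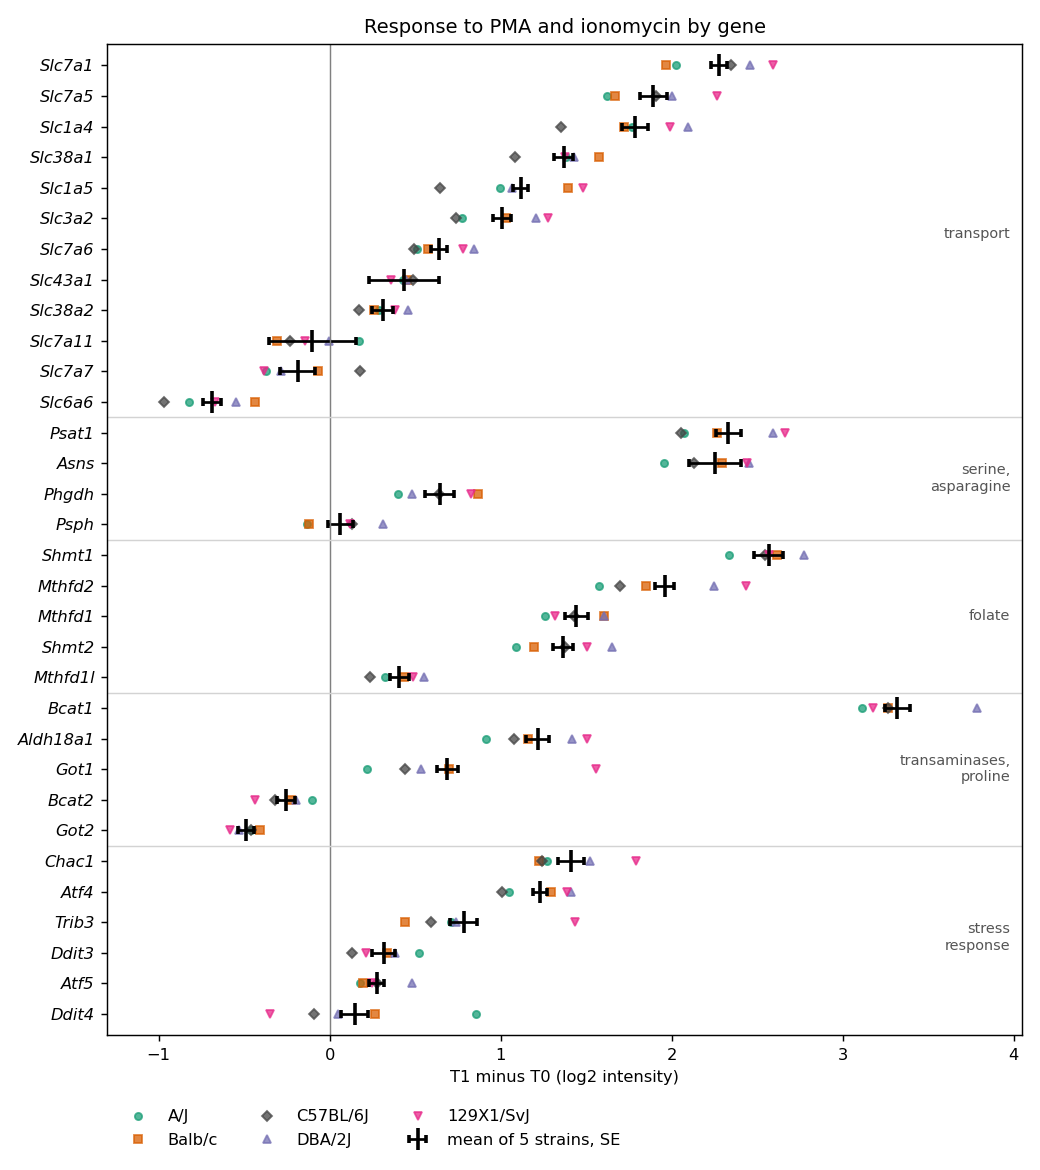
Difference T1 minus T0 (log2 intensity) for each of the 32 members, grouped by role, with 1 point per strain, and the mean over the 5 strains with its standard error. Bcat1 lies highest at a mean of 3.32, Slc6a6 lowest at -0.69, and 24 of the means are called rises.

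Among the 12 transport genes, 8 rose, 1 fell and 3 were not called. Slc7a1, the cationic transporter that imports arginine and lysine, had a lowest, median and highest value of 10.14, 10.47 and 10.80 on the T1 arrays, against 7.84, 8.30 and 8.45 on the T0 arrays. The times did not overlap, and the mean rise was 2.28 (SE 0.05, 4.85-fold, limma adjusted p = 2.07e-27). Slc7a5 and Slc3a2 encode the light and heavy chains of the exchanger that brings in leucine and other large neutral amino acids, known as LAT1 and CD98. Slc7a5 had 9.75, 10.62 and 10.87 at T1 and 8.31, 8.67 and 9.27 at T0, a rise of 1.89 (SE 0.08, adjusted p = 7.58e-20). Slc3a2 had 11.00, 11.34 and 11.63 at T1 and 10.01, 10.40 and 10.86 at T0, a rise of 1.00 (SE 0.05, adjusted p = 3.4e-17). Both chains were higher on every T1 array than on any T0 array.

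The neutral amino acid carriers moved the same way with sizes of their own. Slc1a4, a carrier of serine and alanine, had 6.31, 6.77 and 7.69 at T1 and 4.59, 5.17 and 5.59 at T0, with no overlap. Its rise of 1.78 (SE 0.08, adjusted p = 1.66e-19) is not exact, because in 4 of the 5 strains its T0 mean lay under the filter limit. Slc38a1, a sodium-coupled glutamine carrier, had 9.52, 9.87 and 10.26 at T1 and 8.10, 8.62 and 9.08 at T0, a rise of 1.37 (SE 0.06, adjusted p = 4.81e-20), and its other probe set rose by 1.12 (SE 0.09). The related Slc38a2, which responds to amino acid shortage, rose by 0.31 (SE 0.06, adjusted p = 3.26e-05), with overlapping times and strain differences of 0.17 to 0.45. With all arrays in the fit, Slc38a2 was called in DBA/2J and 129X1/SvJ alone. Without 1 array the 129X1/SvJ call was lost in 4 of 34 fits, while A/J gained a call in 7 and Balb/c in 2. Slc1a5, the glutamine carrier ASCT2, rose by 1.12 (SE 0.04, adjusted p = 2.84e-20), and its T1 and T0 arrays overlapped only across strains, as described further on. Slc7a6, which exchanges cationic for neutral amino acids, rose by 0.64 (SE 0.05, adjusted p = 9.75e-14).

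Slc6a6, the taurine transporter, was the transport gene that fell. It had 8.12, 8.56 and 8.65 at T1 and 8.71, 9.20 and 9.61 at T0, a change of -0.69 (SE 0.05, adjusted p = 2.22e-13) called in all 5 strains. Slc7a7, a relative of Slc7a6, was dim throughout, with medians of 4.99 at T1 and 5.12 at T0, and differed by -0.19 (SE 0.10, adjusted p = 0.0954). It became a call without Balb/c T0 replicate 1, DBA/2J T0 replicate 2, 129X1/SvJ T0 replicate 2 or 129X1/SvJ T1 replicate 4, with adjusted p down to 0.0319. Slc7a11, the cystine and glutamate exchanger, had 5.03, 6.36 and 7.62 at T1 and 5.30, 6.28 and 8.00 at T0, a difference of -0.10 (SE 0.25, adjusted p = 0.712). Its values went with the replicate number. Arrays numbered 3 to 5 had 6.49 to 7.62 at T1 and 6.19 to 8.00 at T0, whereas arrays numbered 1 and 2 had 5.03 to 6.36 at T1 and 5.30 to 6.44 at T0. Within each strain the T0 values of Asns, Slc38a2, Slc7a5, Slc7a1, Slc6a6 and Slc7a7 were also lower on arrays numbered 1 and 2 than on those numbered 3 to 5. What the numbers stand for is not given in the labels.

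In the pathway of serine and asparagine, 3 of 4 genes rose. Psat1, the aminotransferase of serine synthesis, had 8.91, 9.67 and 10.14 at T1 and 6.99, 7.35 and 7.59 at T0, a rise of 2.33 (SE 0.07, 5.03-fold, adjusted p = 5.36e-23). Phgdh, the dehydrogenase that opens the same pathway, had 6.34, 7.40 and 7.95 at T1 and 5.73, 6.72 and 7.06 at T0, a rise of 0.64 (SE 0.08, adjusted p = 4.75e-08) with overlapping times. Psph, the phosphatase that closes it, differed by 0.06 (SE 0.07, adjusted p = 0.433), with medians of 6.54 at T1 and 6.50 at T0, and was called at 0.18 with quantile normalization (adjusted p = 0.0141). The steps of serine synthesis thus differed in the size of their change on this array. Asns, asparagine synthetase, had 8.14, 9.92 and 11.15 at T1 and 5.54, 7.89 and 8.79 at T0, a rise of 2.25 (SE 0.15, 4.77-fold, adjusted p = 1.44e-14). Its overlap between times also came from differences between strains.

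All 5 folate enzymes rose. Shmt1, the cytosolic serine hydroxymethyltransferase, had 8.19, 8.86 and 9.29 at T1 and 5.80, 6.22 and 6.63 at T0, a rise of 2.57 (SE 0.08, 5.93-fold, adjusted p = 2.82e-22). Shmt2, its mitochondrial counterpart, rose by 1.36 (SE 0.06, adjusted p = 1e-19), with 8.67, 9.32 and 9.83 at T1 and 7.65, 8.04 and 8.22 at T0. Both had every T1 array above every T0 array.

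Mthfd2, the mitochondrial methylenetetrahydrofolate dehydrogenase and cyclohydrolase, had 9.10, 9.62 and 9.94 at T1 and 7.29, 7.67 and 7.97 at T0, a rise of 1.96 (SE 0.06, 3.89-fold, adjusted p = 6.93e-24). Mthfd1, the cytosolic enzyme of the same reactions, rose by 1.44 (SE 0.07, adjusted p = 2.55e-18), with 7.96, 8.60 and 9.04 at T1 and 6.78, 7.15 and 7.74 at T0. Mthfd1l, which releases formate from mitochondria, rose least of the 5, by 0.41 (SE 0.05, adjusted p = 6.87e-08), with overlapping times and strain differences of 0.24 to 0.55.

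Of the 5 transaminase and proline genes, 3 rose and 2 fell. Bcat1 (probe set 10549222, chromosome 6), the cytosolic branched-chain aminotransferase that acts on leucine, isoleucine and valine, had the largest rise of the set. It had 8.33, 8.89 and 9.28 at T1 and 5.10, 5.54 and 5.87 at T0, a rise of 3.32 (SE 0.07, 9.98-fold, adjusted p = 8.62e-27). Its T0 strain means, from 5.44 to 5.72, lay close above the filter limit of 5.33, so the size of this rise is not exact. The rise was 3.18 in 129X1/SvJ, 3.78 in DBA/2J, 3.26 in C57BL/6J, 3.26 in Balb/c and 3.11 in A/J. Bcat2, the mitochondrial form, fell by 0.26 (SE 0.05, adjusted p = 4.72e-05), with 6.15, 6.50 and 6.77 at T1 and 6.45, 6.75 and 6.97 at T0, overlapping times and strain differences of -0.44 to -0.10. Its call was lost within the arrays numbered 3 to 5, where the change was -0.16 (adjusted p = 0.0687).

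Got1, the cytosolic aspartate aminotransferase, rose by 0.69 (SE 0.06, adjusted p = 2.2e-11). Got2, its mitochondrial counterpart, had 7.97, 8.25 and 8.49 at T1 and 8.59, 8.71 and 8.91 at T0, a fall of 0.49 on the log2 scale (SE 0.05, adjusted p = 6.22e-11) in every strain, and its other probe set also fell, by 0.47. Aldh18a1, which makes the precursor of proline from glutamate, had 8.36, 9.04 and 9.70 at T1 and 7.50, 7.89 and 8.18 at T0, a rise of 1.21 (SE 0.07, adjusted p = 9.93e-17). For both the aspartate and the branched-chain aminotransferases the cytosolic gene was called higher and the mitochondrial gene lower in the mean over strains. By single strain, the fall of Bcat2 was called in C57BL/6J and 129X1/SvJ only, and the rise of Got1 in all but A/J. A fall was called for 46.3% of all genes.

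Of the 6 genes of the stress response, 5 rose. Atf4, the transcription factor, had 9.15, 9.40 and 9.74 at T1 and 8.03, 8.25 and 8.35 at T0, a rise of 1.23 (SE 0.04, adjusted p = 7.35e-23) with no overlap. Chac1, an enzyme that degrades glutathione and a target of ATF4, had 6.71, 7.46 and 7.90 at T1 and 5.65, 6.02 and 6.49 at T0, a rise of 1.41 (SE 0.07, adjusted p = 2.84e-17), also with no overlap. Trib3, a pseudokinase that restrains ATF4, rose by 0.78 (SE 0.08, adjusted p = 2.02e-10), with overlap. Ddit3, which encodes the factor CHOP, rose by 0.32 (SE 0.07, adjusted p = 0.000104), with strain differences of 0.13 to 0.52. With all arrays in the fit, Ddit3 was called in A/J and DBA/2J alone. The DBA/2J call was lost in 4 of 34 fits without 1 array, and without Balb/c T1 replicate 2 a call was gained in Balb/c. Atf5, a factor related to ATF4, rose by 0.27 (SE 0.04, adjusted p = 2.12e-06), with strain differences of 0.18 to 0.48. With all arrays in the fit, Atf5 was called in C57BL/6J, DBA/2J and 129X1/SvJ. Without 1 array the 129X1/SvJ call was lost in 11 of 34 fits and the C57BL/6J call in 1, and Balb/c gained a call in 1. Ddit4, an inhibitor of the growth kinase complex mTORC1, was not called, with 0.15 (SE 0.08, adjusted p = 0.0953), and its strains differed. It became a call without Balb/c T1 replicate 2, at 0.22 (adjusted p = 0.00224), and with quantile normalization, at 0.27 (adjusted p = 0.00251).

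Genes of the same pathways outside the set, in lists also chosen with earlier results known, were mixed. Of 32 other amino acid transporters 19 passed the filter, of which 8 rose, 8 fell and 3 were not called, with a median change of 0.01. Without the filter 17 of them rose and 8 fell. Slc7a3, a cationic carrier, rose by 1.37 (SE 0.07), and Slc6a9, a glycine carrier, by 0.90 (SE 0.16). Slc43a2, a carrier of large neutral amino acids, changed by -1.57 (SE 0.09), and Slc25a12, a mitochondrial aspartate and glutamate carrier, by -1.16 (SE 0.06). Of 21 further folate and glycine cleavage genes 12 passed, with 7 rises, 4 falls and 1 not called. Slc19a1, the reduced folate carrier, rose by 1.99 (SE 0.06), with 8.40 to 9.78 at T1 and 6.86 to 7.64 at T0, while Mtr, methionine synthase, changed by -0.62 (SE 0.06). Gcsh of the glycine cleavage system rose by 1.71 (SE 0.11), and Ggh, which trims folate polyglutamates, changed by -0.53 (SE 0.08).

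Of 15 methionine and transsulfuration genes 10 passed, with 6 rises and 2 falls, or 10 and 2 without the filter. Ahcyl2 rose by 1.27 (SE 0.06) and Mtap, of methionine salvage, by 1.26 (SE 0.10), whereas Mat2b, the regulatory subunit of S-adenosylmethionine synthesis, changed by -1.28 (SE 0.04) and Adi1 by -0.45 (SE 0.06). Of 21 other amino acid enzymes 14 passed, with 4 rises and 7 falls. Arginase (Arg1) rose by 1.75 (SE 0.12) and Gpt2 by 0.36 (SE 0.06). Bckdha and Bckdk, a subunit and the kinase of the complex that oxidises branched-chain keto acids downstream of the BCAT enzymes, changed by -1.15 (SE 0.05) and -1.05 (SE 0.05). Of 34 other stress and nutrient sensing genes 33 passed, with 17 rises and 14 falls. Atf3 rose by 3.25 (SE 0.08) and Fnip1 by 2.34 (SE 0.06), and Nprl2 and Depdc5, subunits of a brake on mTORC1, changed by -1.16 (SE 0.07) and -1.10 (SE 0.05). Each of these named genes changed in the same direction in all 5 strains and was called by limma, with adjusted p of at most 5.21e-06. The median of Slc7a3, Gcsh and Arg1 at T0, and that of Ggh at both times, lay under the filter limit, so the sizes of these changes are not exact.

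Time took most of the variation of the set. The median share of a member's sum of squares was 79.7% for time and 7.64% for strain, with 2.72% for the interaction of both and 8.77% left as residual. Over all genes these medians were 45.8%, 9.90%, 4.72% and 26.3%. Bcat1 was the extreme on one side with 97.9% for time. The largest shares for strain were 60.9% in Slc43a1 and 52.4% in Slc1a5, and the largest for the interaction were 31.3% in Ddit4 and 23.9% in Got1.

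**Figure D2:**
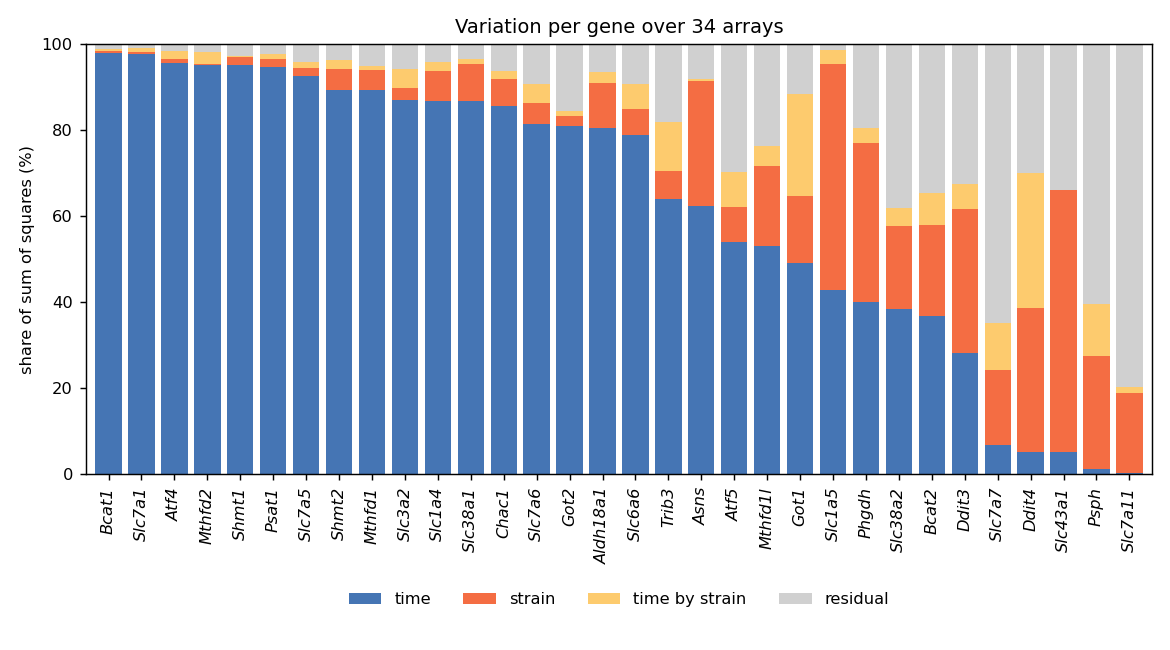
Share of each member's sum of squares (percent) taken by time, strain, the interaction of time and strain, and the residual, as stacked bars that end at the total. Time fills 97.9% of the bar of Bcat1, strain 60.9% of that of Slc43a1, and the residual 79.8% of that of Slc7a11.

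Strains differed in more members at T1 than at T0. The limma F test over the 5 strains called 22 members at T1, where 31.0% of all genes were called, 9 at T0, where 18.5% were, and 6 for the response itself, where 6.92% were. Of these, 7 were called at both times, 15 at T1 and not at T0, and 2, Slc3a2 and Slc6a6, at T0 and not at T1. The median distance from the highest to the lowest strain mean was 0.57 for members and 0.34 for all genes at T1, and 0.40 for members and 0.27 for all genes at T0. The T1 call was kept without any single array in 15 of the 22 members, the T0 call in 6 of 9 and the response call in 5 of 6. Within the arrays numbered 1 and 2 there were 5 calls at T1 and 5 at T0, and within those numbered 3 to 5 there were 11 at T1 and 4 at T0. Only Slc1a5, Asns and Aldh18a1 at T1, and Slc1a5, Asns and Got1 at T0, were called in both of these smaller sets. Strains can differ in sequence under a probe, which changes its signal, and whether this is so for the probe sets of the members was not tested. It bears on every level set between strains, including those of Asns and Slc1a5. The mix of replicate numbers also differed between strains, so differences between strains and between numbers cannot be fully told apart.

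Asns had the widest strain differences of the set at both times. At T1 the means were 10.93 ± 0.19 in 129X1/SvJ (SD, n = 3), 10.30 ± 0.20 in DBA/2J (n = 3), 9.95 ± 0.21 in A/J (n = 4), 9.57 ± 0.33 for the Balb/c arrays (n = 3) and 8.56 ± 0.36 in C57BL/6J (n = 4). At T0 they were 8.49 ± 0.26, 7.85 ± 0.45, 7.99 ± 0.52, 7.28 ± 1.01 and 6.43 ± 0.66 in the same strains. Within each strain the T0 arrays numbered 1 and 2 lay under those numbered 3 to 5. In Balb/c these were 7.33 and 6.24 against 8.26. The 3 arrays of 129X1/SvJ at T1 (10.80, 10.85 and 11.15) lay above the 4 of C57BL/6J (8.76, 8.40, 8.93 and 8.14) without overlap, as they did at T0 (8.38, 8.31 and 8.79 in 129X1/SvJ, against 6.37, 5.54, 7.09 and 6.71 in C57BL/6J). Highest and lowest strain stood 2.38 apart at T1 (5.2-fold) and 2.07 apart at T0 (4.19-fold). The limma F test over all 5 strains gave adjusted p = 4.38e-05 at T1 and 0.00014 at T0, and this pair alone was not tested. The response did not differ detectably between strains (adjusted p = 0.941), with rises of 1.95 to 2.45. The T1 mean of C57BL/6J (8.56) was thus close to the T0 mean of 129X1/SvJ (8.49).

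**Figure D3:**
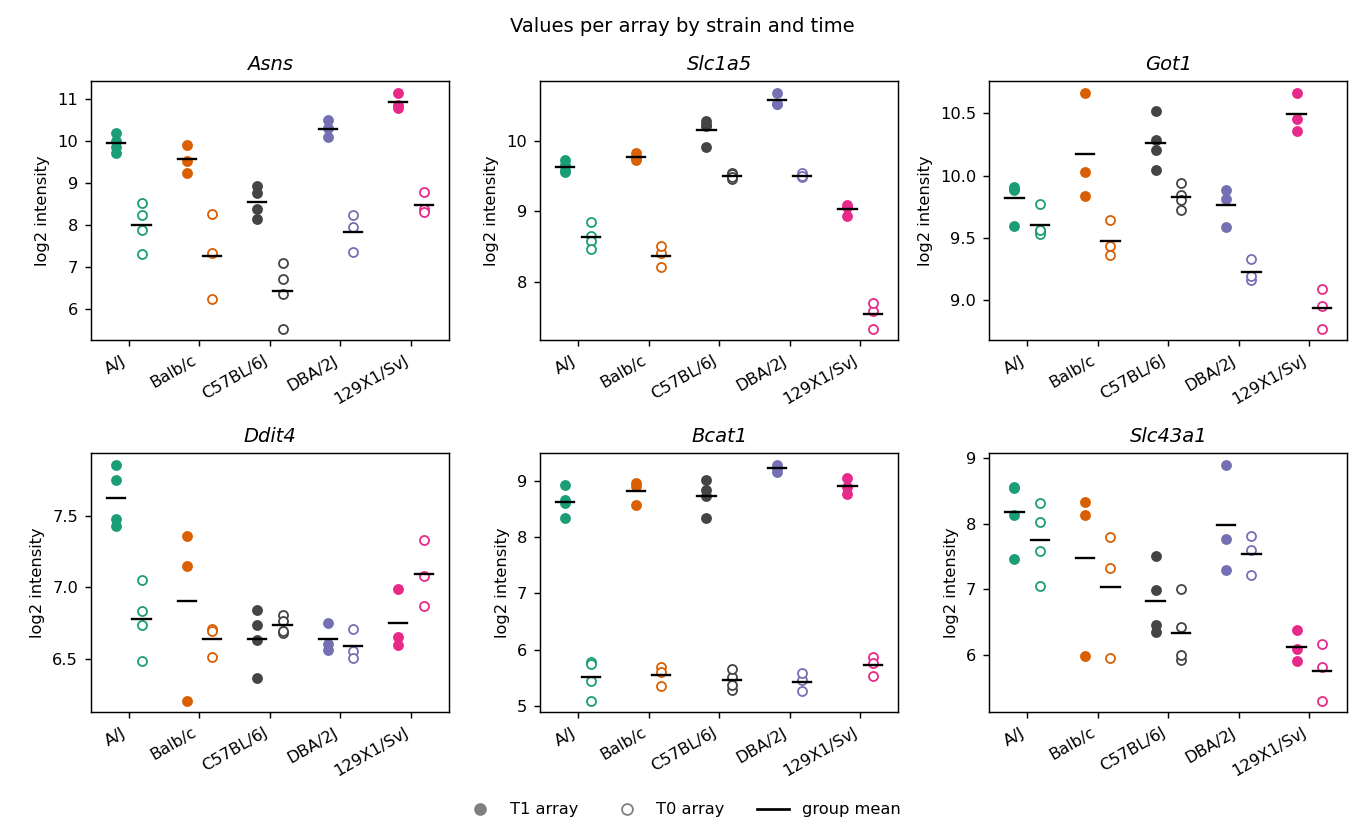
Log2 intensity on every array for Asns, Slc1a5, Got1, Ddit4, Bcat1 and Slc43a1, by strain, with T1 (filled) left of T0 (open) and bars at the group means. For Slc1a5 the T1 mean of 129X1/SvJ (9.03) lies under the T0 means of C57BL/6J (9.50) and DBA/2J (9.51), while for Bcat1 the T1 and T0 arrays of all strains are apart.

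Slc1a5 (probe set 10550332, chromosome 7) separated the strains with little scatter. At T1 its means were 10.57 ± 0.09 for DBA/2J, 10.15 ± 0.16 for C57BL/6J, 9.77 ± 0.05 for Balb/c, 9.63 ± 0.07 for A/J and 9.03 ± 0.08 for 129X1/SvJ. At T0 they were 9.51 ± 0.03, 9.50 ± 0.03, 8.38 ± 0.15, 8.64 ± 0.16 and 7.55 ± 0.19 in the same strains (SD, n = 4 for A/J and C57BL/6J and 3 for the others). DBA/2J and 129X1/SvJ differed by 1.54 at T1 and by 1.96 at T0 (limma F test over strains, adjusted p = 4.21e-11 and 1.54e-15). At T0 the arrays of DBA/2J overlapped those of C57BL/6J, and those of A/J overlapped those of Balb/c. The rise was 1.48 in 129X1/SvJ, 1.06 in DBA/2J, 0.65 in C57BL/6J, 1.39 in Balb/c and 1.00 in A/J, so that it was smallest in a strain with a high T0 level and largest in the strain with the lowest. These responses differed (adjusted p = 0.000585), although not within the smaller sets of numbers (adjusted p = 0.151 for numbers 1 and 2 and 0.377 for 3 to 5).

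Got1 had the widest range of strain responses among the members, 1.34 from the largest to the smallest. In 129X1/SvJ it had 10.67, 10.36 and 10.46 at T1 and 8.95, 8.77 and 9.09 at T0, a rise of 1.56 (SE 0.15, adjusted p = 3.06e-10). In A/J it had 9.89, 9.88, 9.91 and 9.60 at T1 and 9.56, 9.53, 9.56 and 9.77 at T0, a difference of 0.22 (SE 0.13, adjusted p = 0.158). DBA/2J (0.53), C57BL/6J (0.44) and Balb/c (0.70) had rises in between, each called. 129X1/SvJ was thus highest at T1 and lowest at T0, and the strains' responses differed (limma F test, adjusted p = 0.000321), with 0.114 within numbers 1 and 2 and 0.115 within numbers 3 to 5.

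With all arrays in the fit, Ddit4 was called in A/J and in no other strain. A/J had 7.43, 7.75, 7.86 and 7.48 at T1 and 6.83, 6.74, 7.05 and 6.48 at T0, a rise of 0.85 (SE 0.16, adjusted p = 4.96e-05) with no overlap. The differences in the other strains were -0.35 in 129X1/SvJ, 0.05 in DBA/2J, -0.09 in C57BL/6J and 0.27 in Balb/c, and the responses differed (limma F test, adjusted p = 0.0116). In Balb/c the T1 values were 7.36, 6.20 and 7.15, of which 6.20 is the array that stood apart. Without it Ddit4 was also called in Balb/c (adjusted p = 0.00171) and, as a fall, in 129X1/SvJ (adjusted p = 0.0354). The response test gave 0.596 within numbers 1 and 2 and 0.149 within numbers 3 to 5.

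Mthfd2, Slc7a1 and Atf4 were the other members with a called difference in response. Mthfd2 rose by 2.43 in 129X1/SvJ, 2.25 in DBA/2J, 1.70 in C57BL/6J, 1.85 in Balb/c and 1.57 in A/J (limma F test of the response, adjusted p = 0.00391). Slc7a1 rose by 2.59, 2.46, 2.35, 1.97 and 2.02 in these strains in the same order (adjusted p = 0.0144). For Atf4 the rises were 1.39, 1.41, 1.01, 1.29 and 1.05 (adjusted p = 0.0449), and with any of 26 of the 34 arrays left out that call was lost, at adjusted p up to 0.0889. It held without 129X1/SvJ T1 replicate 1, 129X1/SvJ T0 replicate 2, A/J T1 replicate 1, Balb/c T1 replicates 2 or 4, C57BL/6J T1 replicate 2, C57BL/6J T0 replicate 4 or DBA/2J T1 replicate 4. Leaving out Balb/c T1 replicate 2 added Slc3a2 and Trib3 to the calls, for 8 in all. Trib3 was also called without Balb/c T1 replicates 1 or 4, Slc3a2 without C57BL/6J T0 replicate 1 and Shmt2 without C57BL/6J T1 replicate 4. No member was called for the response within either smaller set of numbers by limma, where 6 members within numbers 1 and 2 and 5 within numbers 3 to 5 had an unadjusted p under 0.05.

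Some calls between strains at a single time rested on few arrays. At T1 the call of Atf4 (adjusted p = 0.0125) was lost without 129X1/SvJ replicate 4 (0.0570), and that of Trib3 (0.0246) without 129X1/SvJ replicates 1 (0.0511) or 4 (0.0791). The T1 call of Mthfd1 (0.0314) was lost without A/J replicates 4 or 5, DBA/2J replicates 2 or 3 or 129X1/SvJ replicate 4, at up to 0.0717. That of Bcat1 (0.0389) was lost without A/J replicates 2, 4 or 5 or any DBA/2J array at T1, at up to 0.132. That of Slc7a1 (0.0376) was lost without A/J replicates 4 or 5, Balb/c replicate 4, C57BL/6J replicates 2 or 3 or 129X1/SvJ replicate 4 at T1, at up to 0.104. That of Shmt1 (0.0406) was lost without A/J replicates 4 or 5, any DBA/2J array or 129X1/SvJ replicates 1 or 2 at T1, at up to 0.118.

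The T1 call of Slc7a5 (0.0443) was lost in 17 of 34 such fits, at up to 0.114. These left out any T1 array of DBA/2J or 129X1/SvJ, A/J T1 replicates 1, 2 or 4, Balb/c T1 replicate 2, or a T0 array (A/J 4, Balb/c 1, C57BL/6J 1 or 4, DBA/2J 3 or 4, 129X1/SvJ 1). At T0 the call of Slc3a2 (0.0261) was lost without A/J T0 replicate 5 or Balb/c T0 replicates 1 or 2, at up to 0.0762, and that of Slc7a1 (0.0168) without 129X1/SvJ T0 replicates 1 or 2, at up to 0.0726. The T0 call of Slc6a6 (0.0458) was lost in 24 of 34 fits, at up to 0.165, and held without A/J T0 replicates 4 or 5, Balb/c T1 replicates 2 or 4, Balb/c T0 replicate 4, C57BL/6J replicate 1 of either time, C57BL/6J T1 replicates 3 or 4 or 129X1/SvJ T0 replicate 2. Other members gained a call between strains without 1 array, namely Mthfd1l at T1 (without A/J T1 replicate 2 or Balb/c T1 replicates 1 or 2, down to 0.00768) and, at T0, Slc1a4 (without A/J T0 4, Balb/c T0 4 or DBA/2J T0 3, down to 0.0273), Psph (without Balb/c T0 4 or C57BL/6J T0 1, down to 0.0253), Shmt2 (without C57BL/6J T1 4, 0.0360) and Trib3 (without Balb/c T1 2, 0.0375).

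Slc43a1, a carrier of large neutral amino acids, differed by strain, and its call by time depended on the fit. Its values ran from 5.90 to 8.89 at T1 and from 5.30 to 8.32 at T0, with medians of 7.47 and 7.05, and the mean difference was 0.43 (SE 0.21, adjusted p = 0.0537). That difference became a call without A/J T1 replicate 4, A/J T0 replicate 5, Balb/c T1 replicate 2, Balb/c T0 replicates 1 or 4, C57BL/6J T1 replicates 2 or 4, C57BL/6J T0 replicate 3, DBA/2J T1 replicate 3 or 129X1/SvJ T0 replicate 4, with adjusted p down to 0.00386. It was also a call with strain and number as a replicate block (adjusted p = 0.00106), with number alone as a block (0.0390) and with quantile normalization (0.51, adjusted p = 0.0218). A/J and 129X1/SvJ, its highest and lowest strains, stood 2.05 apart at T1 and 1.98 apart at T0. The limma F test over all 5 strains gave adjusted p = 0.00416 at T1 and 0.00594 at T0, and this pair alone was not tested. Markers of red cell precursors moved with it. The mean of 8 erythroid markers at T1 was 8.41 for A/J, then 8.04 for DBA/2J, 7.61 for Balb/c, 6.93 for C57BL/6J and 5.25 for 129X1/SvJ, and it was 8.23, 7.79, 7.53, 6.58 and 5.22 at T0. Slc43a1 had the same order of strains, with 8.17, 7.99, 7.48, 6.82 and 6.12 at T1 and 7.74, 7.54, 7.03, 6.34 and 5.76 at T0. Within Balb/c, replicate 2 was low in both, with Slc43a1 at 5.99 at T1 and 5.95 at T0. All 8 markers were called between strains at both times and none for stimulation. The part of red cell precursors in the values of Slc43a1 was not tested.

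**Figure D4:**
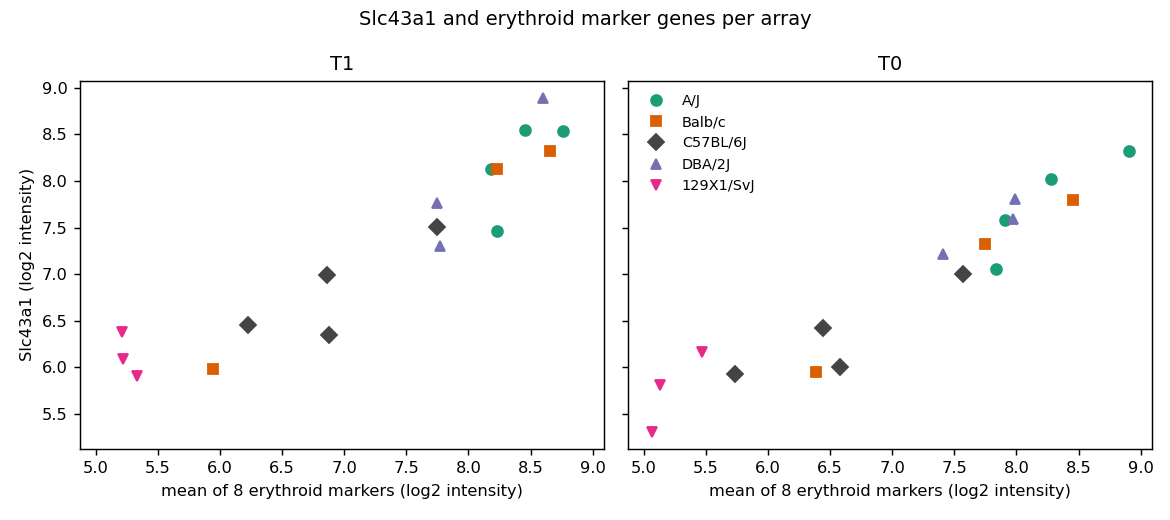
Slc43a1 (log2 intensity, vertical) against the mean of 8 erythroid marker genes (log2 intensity, horizontal), 1 point per array, coloured by strain, with T1 in the left panel and T0 in the right. The arrays of 129X1/SvJ lie at the low end of both axes (marker mean 5.21 to 5.33 at T1 and 5.07 to 5.47 at T0), and Balb/c replicate 2 lies apart from the other Balb/c arrays in both panels.

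The strains of the larger responses were often the same. Of the 24 members that rose, the largest rise was in DBA/2J for 11 and in 129X1/SvJ for 10, which together make 87.5% of them, against 56.4% of all 4113 genes that rose. The smallest rise was in A/J for 11 and in C57BL/6J for 10, and over all genes that rose it was in A/J for 33.3% and in C57BL/6J for 19.6%. The median rise of these members was 1.49 in 129X1/SvJ, 1.42 in DBA/2J, 1.08 in C57BL/6J, 1.26 in Balb/c and 1.07 in A/J, and over all genes that rose it was 0.40, 0.43, 0.38, 0.39 and 0.32 in the same strains. The highest T1 mean was in 129X1/SvJ or DBA/2J for 91.7% of the members that rose, against 60.0% of all genes that rose, and the highest T0 mean for 54.2%, against 46.4%. These are counts over genes of the same arrays and carry no test.

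Cell type markers also differed between these strains. The T cell marker mean at T1 was 8.73 in DBA/2J and 8.68 in 129X1/SvJ, against 9.06 in C57BL/6J, 9.12 in Balb/c and 9.26 in A/J, and at T0 it was 9.25 in both DBA/2J and 129X1/SvJ, against 9.51, 9.59 and 9.63. The B cell marker mean at T1 was 6.76 in DBA/2J and 6.94 in 129X1/SvJ, against 6.67, 6.59 and 6.43, and at T0 it was 8.33 and 8.50, against 7.62, 7.64 and 7.35. As log2 intensities none of these markers is at 0, and their part in the order of strains was not tested.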

How the data were processed

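Gene expression was measured on 34 Affymetrix arrays, each of 1 sample. The authors deposited log2 intensities summarised with RMA, per the submitters' processing notes; no version of it is given in the sources used here, nor are probe set definitions. RMA quantile-normalises arrays, so values are relative within an array. The table held 35556 probe sets, of which 21789 carry 1 gene symbol, 1621 several and 12146 none, by the platform's annotation, and symbols were updated through gene identifiers (21698 of the 21789 found in the RefSeq table of GRCm38.p6). A gene was its brightest probe set of 1 symbol, and 11413 genes passed the filter. The members and gene lists were chosen with earlier results of these data known.

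A linear model with 10 groups of strain and time was fitted to the deposited log2 values of all genes with limma 3.58.1 in R 4.3.3. Contrasts were T1 minus T0 per strain and their mean, and moderated F tests compared strains at T1, at T0 and in the response. Benjamini-Hochberg adjustment ran over the 11413 genes, with calls at an adjusted p under 0.05. The code was tested on simulated data. All members are named. From each other list the text names the 2 largest called rises and the 2 largest called falls. Alternatives were no filter, other scalings, the mean over probe sets, a robust trended fit, replicate blocks, a fit per strain and leaving out each array. Fits within replicate numbers 1 and 2 and within 3 to 5 were added after seeing the data. So were the descriptions of Slc7a11, Asns, Slc38a2, Slc7a5, Slc7a1, Slc6a6 and Slc7a7 by number. The number of arrays limits the precision. The p-values set a difference against the spread between arrays of a group, which need not be that between mice. They treat arrays as independent.

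Whether T1 and T0 arrays of 1 strain and number are paired was checked by the correlation of their deviations from the group means. It was over 0.1 in 14 of 17 pairs (-0.08 to 0.47), and the labels tie them to no shared mouse, so no block was used. Arrays of the same number in different strains also deviated together (median correlation 0.24, over 0.1 in 39 of 54 pairs, against a median of -0.10 for different numbers). What the numbers share is not given in the labels.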

Additional observations from a re-analysis of the deposited data

Results flagged for a closer look

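Of 128 groups of 4 arrays, 3 held an array far from the other 3, where chance alone would mark about 1 in 20 groups. All were A/J replicate 5. For Got1 this array had 9.60 at T1, against 9.88 to 9.91 on the other arrays (gap over range 0.926), and 9.77 at T0, against 9.53 to 9.56 (0.874). For Chac1 it had 7.07 at T1, against 7.43 to 7.49 (0.847).

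The response to stimulation differed between strains, by the limma F test of the interaction, in Got1 (adjusted p = 0.000321), Slc1a5 (0.000585), Mthfd2 (0.00391), Ddit4 (0.0116), Slc7a1 (0.0144) and Atf4 (0.0449).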

How the results depend on the processing

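Over 340 results and 44 other settings, of which 34 left out 1 array each, 14509 values were compared. Of these, 14133 were counted as the same, 253 lost a call and 104 gained one. Another 18 counts or values moved, and 1 called change reversed its sign. The reversed one was Phgdh in Balb/c, at -0.00749 (adjusted p = 0.991) within numbers 3 to 5. Same means the same side of the threshold for a test, or a similar size for a count. A changed sign of a difference that was not called also counted as the same. Psph was such a case, with a mean change of -0.009 within numbers 1 and 2 and 0.06 with all arrays. Of the members, 27 were called for the mean stimulation (27 to 29 without 1 array, 27 to 30 over the other settings). Leaving out 1 array gave 17 to 23 calls between strains at T1, 7 to 11 at T0 and 5 to 8 for the response, and 23 to 25 in A/J, 21 to 28 in Balb/c, 23 to 25 in C57BL/6J, 24 to 26 in DBA/2J and 24 to 27 in 129X1/SvJ. Within numbers 1 and 2, and within 3 to 5, the calls were 5 and 11 at T1, 5 and 4 at T0, and 0 and 0 for the response, with fewer arrays (18 and 16). Over all genes they were 779 and 1764 at T1 (3533 with all arrays), 984 and 923 at T0 (2107), and 112 and 175 for the response (790). With the replicate block of strain and number, 29 members were called for the mean stimulation and 9 for the response, and with the number as a replicate block across strains 25 at T1 and 11 at T0. Without the filter 58.8% of called genes were higher at T1, against 43.8% with it, the median of all genes was 0.09, 17 other transporters and 10 methionine genes rose, and 18 members were called at T1. With quantile normalization 13 were called at T0. The cause of these changes was not tested.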
